A study of Canis lupus familiaris with 20 samples.

Results

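The 10 immediate early transcription factors EGR1, EGR2, EGR3, FOS, FOSB, JUN, JUNB, JUND, MYC and NR4A1 were followed in the retinas of dogs after an injection of ciliary neurotrophic factor (CNTF). Their probes were found by the gene name that the array design gives, or by a probe description that names the gene. They are 10 of the 13269 genes named on the array, and hold 12 of its 43603 distinct probes, because EGR1 and FOSB each had a second one. For each gene the probe with the highest mean signal over the 20 arrays was used as the main probe. Each of 10 dogs received 12 µg CNTF in the vitreous of the right eye and phosphate-buffered saline (PBS) in that of the left, and both retinas were collected 1 week later. The normal group was 5 male dogs, of which 4 were CNGB3+/m carriers and dog 3 was CNGB3+/+. The mutant group was 5 CNGB3m/m dogs, 3 of them female, with the D262N missense mutation in the cone channel gene CNGB3. All came from a research colony with a shared background. By the sample labels the normal dogs were 8.9 weeks old and the mutants 10.7 to 11.5 weeks, but the design text puts all of them near 11 months. By the labels age thus differs between the genotypes throughout, so age and genotype cannot be told apart. Every group therefore had 5 retinas, each measured on its own single-colour array. No eye without an injection was analysed here, so each comparison is with a PBS eye.

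Immediate early genes are transcribed within minutes of a stimulus without the need for new protein, and most of their transcripts are short-lived. FOS and JUN family proteins pair to form the AP-1 factor, EGR proteins bind GC-rich promoter sites through zinc fingers, NR4A1 is an orphan nuclear receptor, and MYC pairs with MAX to drive growth genes. In the retina EGR1 is known for its response to light and to the optical focus of the eye, above all in amacrine cells. CNTF signals through gp130 receptors to JAK kinases, STAT3 and the MAP kinase cascade. The retinas here were taken long after an acute response, so the values are levels at 1 week and not the first burst of transcription.

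The probes of the genes on which the results turn are shown 5′ to 3′ as the array files list them, with the longest unbroken stretch of G and C in capitals. The EGR1 pair is shown because it reads the same transcript at separate places, the FOSB pair because its probes were placed on different chromosomes, and JUNB for its base composition. For EGR1 and FOS only the first 30 of 60 bases are given, with the capitals marking the longest stretch within them.
EGR1 main probe: atttGCatggattttggatatatcatttca
EGR1 second probe: cctctgcaGGGCtttcggacatgacaacca
FOS main probe: atcatGCattgttgaggtggtctgaatgtt
FOSB main probe: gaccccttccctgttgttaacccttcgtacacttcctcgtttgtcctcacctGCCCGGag
FOSB second probe: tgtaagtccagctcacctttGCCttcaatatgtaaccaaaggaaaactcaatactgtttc
JUN main probe: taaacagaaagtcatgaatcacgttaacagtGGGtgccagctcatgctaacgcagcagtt
JUNB main probe: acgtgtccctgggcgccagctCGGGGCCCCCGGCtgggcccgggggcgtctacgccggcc
MYC main probe: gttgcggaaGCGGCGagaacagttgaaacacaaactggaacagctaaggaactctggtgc
NR4A1 main probe: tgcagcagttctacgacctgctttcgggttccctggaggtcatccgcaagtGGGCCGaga

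Positions refer to the dog genome build canFam2. The EGR1 main probe lies at chr11:29065708-29065767 and the second at chr11:29065373-29065431, 276 bases apart. The FOSB main probe lies at chr1:112980036-112980095 on the minus strand, whereas the second FOSB probe, the only one found by its description, was placed at chr10:3542338-3542397. The remaining main probes lie at chr4:17913339-17913398 for EGR2, chr25:37584343-37584402 for EGR3, chr8:51372291-51372350 for FOS, chr5:53970988-53971047 for JUN, chr20:52362218-52362277 for JUNB, chr20:47740701-47740760 for JUND, chr13:28242482-28242541 for MYC and chr27:5952243-5952302 for NR4A1. Which exon or untranslated stretch a probe covers was not assigned here. The JUNB probe is 83.3% G and C against a median of 43.3% over all probes, and only 0.0917% of probes reach that share.

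Values are log2 signal relative to the 75th percentile of the array, and differences are log2 differences ± standard error (SE). A difference was called when its p, adjusted over all probes tested, was under 0.05. The 75th percentile of signal lay between 291 and 592.5 intensity units per array, and 52.2 to 71.9% of probes were well above background. Treatment followed slide closely. Slide 1 held 4 PBS arrays of normal dogs, slide 5 held 4 CNTF arrays of mutants, and slide 3 was the only one with CNTF and PBS arrays, from the right eyes of normal dogs 1 and 2 and the left eyes of mutants 4 and 5. Values with the slide as a block in place of the dog rest on few arrays. In normal dogs they rest on slides 2 and 3, and slide 2 held only 1 PBS array of a normal dog. In mutants they rest on slides 3 and 4, and slide 4 held only 1 CNTF array of a mutant. Slide-block values are given for the members and, where a list gene is named, as calls kept or lost. Counts of cell type markers stand beside all probes, of which 23.6% were called higher and 27.6% lower after CNTF in normal dogs. In mutants these shares were 11.6% and 17.3%. The 6 rod marker genes of the list used here were above background on all 20 arrays; 2 fell and 1 rose in normal dogs and 4 fell in mutants, where their summed level was 633 to 905 in PBS and 303 to 519 in CNTF eyes. Bipolar cell markers fell in 3 of 6 and 4 of 6 genes, and neutrophil markers rose in 3 of 4 and 2 of 4. Among the neutrophil markers that rose was ITGAM, which the microglia and macrophage list also holds. Of 4 ganglion cell markers tested 2 rose in each genotype, and 2 fell in normal dogs and 1 in mutants. Of 6 Müller glia markers 4 rose and 1 fell in normal dogs (median 0.62). In mutants 0 of them rose and 2 fell (median -0.04). Cone markers fell after CNTF, in 6 of 6 genes in normal dogs and 5 of 6 in mutants. Microglia and macrophage markers rose in 7 of 7 genes in both genotypes, with a median of 3.34 in normal dogs and 2.78 in mutants. The summed level of those 7 genes, in multiples of the 75th percentile, was 1.45 to 2.48 in PBS and 18.2 to 29.3 in CNTF eyes of normal dogs, and 2.37 to 4.26 and 19.3 to 33.7 in mutants. All of the 7 were well above background on some arrays. The part of these shifts in the results on immediate early genes was not tested, and in whole retina a change in the number of cells of a type and a change in RNA per cell cannot be told apart.

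CNTF eyes of normal dogs had less EGR1, EGR2 and NR4A1 and more FOS, JUN and MYC than the PBS eyes of the same dogs. Thus 3 members rose and 3 fell among the 8 that could be tested, and the median difference was 0.38. The background was high, since 51.2% of all 29336 probes tested were called in normal dogs, 23.6% as higher and 27.6% as lower, with a median of -0.09. In mutants JUN and MYC rose and EGR1 and NR4A1 fell, 4 of 8 tested, with a median of 0.06. There 28.9% of all probes were called, 11.6% as higher and 17.3% as lower, again with a median of -0.09. The groups did not overlap for 5 members in normal dogs and 3 in mutants, against 30.0% and 14.8% of all probes. FOSB and JUNB were tested and not called in either genotype, EGR3 was not well above background on any array, and JUND kept too few arrays for the fit. With the slide as a block only JUN and MYC in normal dogs were still called, where 3.91% of all probes were called in normal dogs and 2.71% in mutants.

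**Figure D1:**
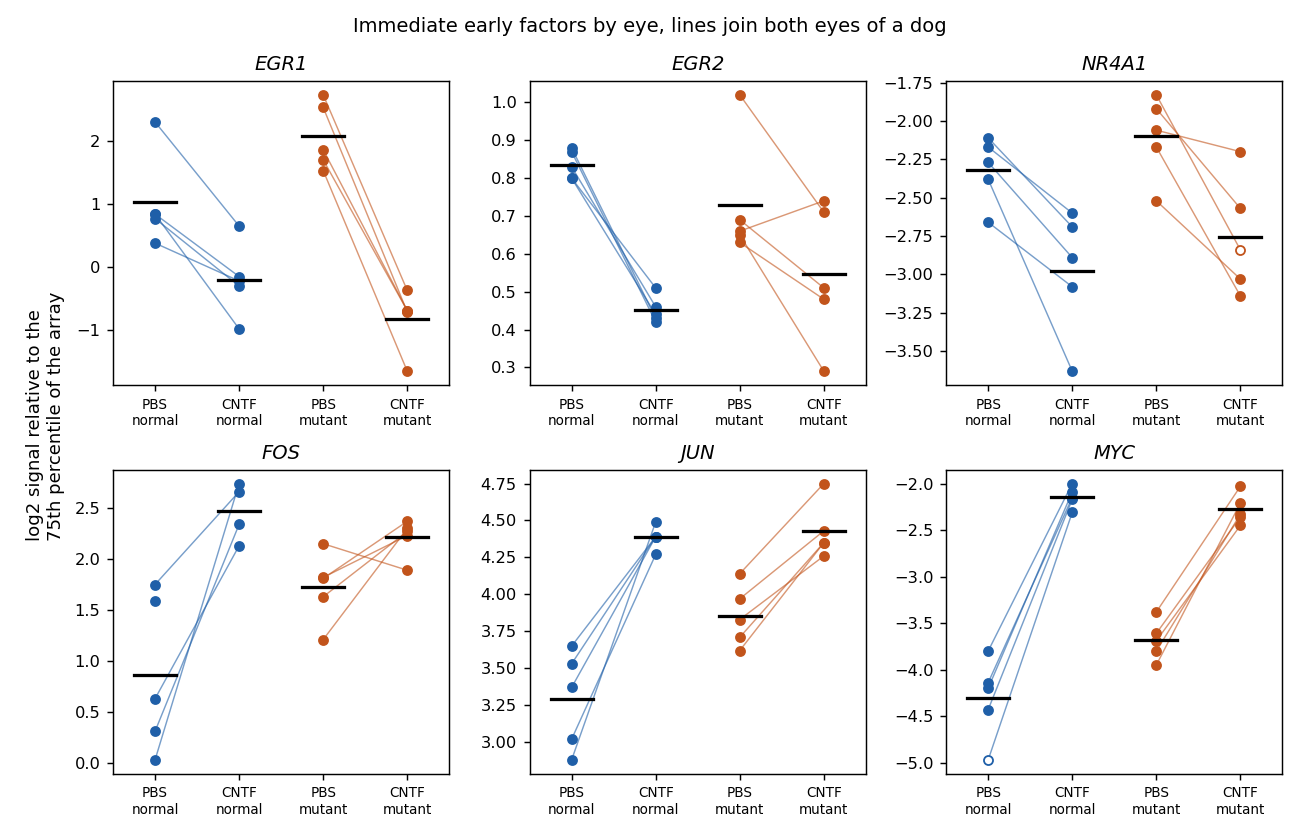
Log2 signal of the main probe of 6 members, relative to the 75th percentile of the array (vertical axis, own scale in each panel), in the 4 groups of 5 retinas. Points are arrays (open where not well above background), thin lines join both eyes of a dog and bars are group means. EGR1 and NR4A1 are lower in the CNTF eye of all 10 dogs, and JUN and MYC are higher in the CNTF eye of all 10.

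EGR1, the zinc finger factor used as a marker of neuronal activity, fell in both genotypes. In PBS eyes of normal dogs 1 to 5 its level was 0.84, 2.30, 0.77, 0.84 and 0.38, and in their CNTF eyes -0.98, 0.65, -0.30, -0.15 and -0.22. Dog 2 was the highest in both eyes, and its CNTF eye was above the PBS eye of dog 5, so the groups overlapped. In mutants 1 to 5 the PBS eyes had 2.73, 1.70, 1.86, 1.53 and 2.53 and the CNTF eyes -0.37, -0.69, -0.69, -1.65 and -0.71. All mutant PBS eyes were above all mutant CNTF eyes.

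The EGR1 change was a fall of 2.34-fold in normal dogs (-1.23 ± 0.19, adjusted p = 0.000453) and of 7.41-fold in mutants (-2.89 ± 0.19, adjusted p = 1.37e-06), with n = 5 dogs each and the same direction in all of them. Of all probes tested in mutants, 0.948% changed by at least as much in either direction, and in normal dogs 7.65% did. Within dogs the difference ran from -1.82 to -0.60 in normal dogs and from -3.24 to -2.38 in mutants. The second probe gave -1.14 ± 0.20 (adjusted p = 0.0012) and -2.67 ± 0.20 (adjusted p = 4.14e-06), and its single-dog differences ran from -1.78 to -0.33 and from -3.09 to -2.28. Both probes thus gave the same direction in every dog. Of all probes 27.6% were called lower in normal dogs and 17.3% in mutants. Amacrine cell markers, from a cell type known to express EGR1, also fell in 4 of 5 genes tested in each genotype (medians of -0.82 and -0.62). Their summed level was 4.18 to 5.27 in PBS and 2.32 to 2.56 in CNTF eyes of normal dogs, and 4.15 to 5.13 and 2.05 to 2.57 in mutants, and its part in the EGR1 result was not tested. Under the slide block the EGR1 main probe gave -0.48 ± 0.88 in normal dogs (adjusted p = 0.788) and -2.34 ± 0.88 in mutants (adjusted p = 0.229), and within slide 3 the CNTF arrays of normal dogs differed from the PBS arrays of mutants by -2.19. With slide and dog both in the model the values were -2.04 ± 0.31 (adjusted p = 0.0728) and -4.54 ± 0.31 (adjusted p = 0.00635). Both lay beyond every single-dog difference of the main probe in their genotype.

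The order of EGR1 levels was PBS mutant at 2.07 ± 0.53 (SD, n = 5), PBS normal at 1.03 ± 0.74, CNTF normal at -0.20 ± 0.58 and CNTF mutant at -0.82 ± 0.49. Each group overlapped its neighbour in this order, and the 2 mutant groups stand at opposite ends of it. In the PBS eyes of normal dogs the SD of EGR1 was larger than that of 97.3% of probes, whose median SD there was 0.237.

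EGR2, a close relative that drives myelination in Schwann cells, changed less but with little scatter. Its level in the PBS eyes of normal dogs 1 to 5 was 0.88, 0.80, 0.83, 0.87 and 0.80, and in the CNTF eyes 0.43, 0.44, 0.46, 0.42 and 0.51. These groups were well apart, and their SDs of 0.0381 and 0.036 were smaller than those of all but 0.428% and 0.306% of probes. The fall was 1.30-fold (-0.38 ± 0.09, adjusted p = 0.00466, 5 of 5 dogs). In mutants the PBS eyes had 0.69, 0.63, 1.02, 0.65 and 0.66 and the CNTF eyes 0.51, 0.48, 0.71, 0.29 and 0.74. Mutant dog 5 was higher in its CNTF eye, and the difference of -0.19 ± 0.09 was not called (adjusted p = 0.14, 4 of 5 dogs lower). With normexp correction the value in normal dogs was -0.36 and was not called (adjusted p = 0.0518). Under the slide block EGR2 gave -0.24 ± 0.27 and -0.18 ± 0.27, with adjusted p of 0.624 and 0.908. The order was PBS normal at 0.84 ± 0.04 (SD, n = 5), PBS mutant at 0.73 ± 0.16, CNTF mutant at 0.55 ± 0.18 and CNTF normal at 0.45 ± 0.04, and neighbours overlapped. EGR3, which takes part in the muscle spindle and in T cell control, was not well above background on any array, with values between -6.73 and -3.77, and no fold was computed.

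NR4A1, also called NUR77, fell by nearly the same amount in both genotypes. Normal dogs 1 to 5 had -2.38, -2.11, -2.17, -2.66 and -2.27 in PBS eyes and -3.63, -2.69, -2.6, -3.08 and -2.89 in CNTF eyes. Mutants 1 to 5 had -1.83, -2.52, -1.92, -2.17 and -2.06 in PBS eyes and -2.84, -3.03, -2.57, -3.14 and -2.20 in CNTF eyes, of which that of dog 1 was not well above background. The CNTF eye was the lower in all 10 dogs, while the groups overlapped in both genotypes. The change was 1.58-fold down in each (-0.66 ± 0.15 in normal dogs, adjusted p = 0.00485; -0.66 ± 0.15 in mutants, adjusted p = 0.00773). NR4A1 levels ran from PBS mutant at -2.10 ± 0.27 (SD, n = 5) over PBS normal at -2.32 ± 0.22 and CNTF mutant at -2.76 ± 0.38 to CNTF normal at -2.98 ± 0.41, each overlapping the next. The calls depended on the background correction. With normexp correction of the mean spot signal, which added an offset of 50 intensity units, the differences were -0.16 (adjusted p = 0.674) and 0.10 (adjusted p = 0.743). The slide block gave -0.86 ± 0.53 and -1.03 ± 0.53, with adjusted p of 0.376 and 0.459.

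FOS, the AP-1 subunit that pairs with JUN proteins, had levels of 0.63, 1.75, 0.31, 1.59 and 0.03 in PBS eyes of normal dogs 1 to 5. Their CNTF eyes had 2.13, 2.66, 2.34 and 2.74 in dogs 1, 2, 3 and 5, and the spot of dog 4 carried an outlier mark and was left out. All CNTF values were above all PBS values. FOS rose 3.45-fold in normal dogs (1.78 ± 0.27, adjusted p = 0.000661, 4 of 4 dogs with both eyes), an estimate over pairs, beside group means of 0.86 and 2.46. With the marked spot kept the difference was 1.6 ± 0.26 (adjusted p = 0.000701).

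In mutants 1 to 5 FOS was 1.81, 1.21, 1.63, 1.82 and 2.15 in PBS eyes and 2.37, 2.30, 2.27, 2.23 and 1.89 in CNTF eyes. Dog 5 was lower in its CNTF eye and the groups overlapped, and the difference of 0.49 ± 0.25 was not called (adjusted p = 0.166, 4 of 5 dogs higher). The PBS eyes of normal dogs were spread over a wide range, with an SD above that of 97.6% of probes, and 3 of the 5 mutant PBS eyes lay above that range. In the slide-block fit FOS gave 1.93 ± 0.62 in normal dogs (adjusted p = 0.107) and 0.25 ± 0.64 in mutants. Within slide 3 the CNTF arrays of normal dogs were 0.41 above the PBS arrays of mutants. With both slide and dog in the model the FOS values were 1.11 in normal dogs (adjusted p = 0.447) and -1.04 in mutants (adjusted p = 0.514). FOS levels ran from CNTF normal at 2.46 ± 0.28 (SD, n = 4) over CNTF mutant at 2.21 ± 0.19 and PBS mutant at 1.72 ± 0.34 to PBS normal at 0.86 ± 0.77 (n = 5 each), and each overlapped the next.

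FOSB, whose splice form ΔFosB accumulates on repeated stimulation, was nearly level across all groups. Its main probe had 0.69 to 0.88 in PBS and 0.71 to 1.08 in CNTF eyes of normal dogs, and 0.75 to 1.05 and 0.71 to 1.08 in mutants. The differences of 0.07 ± 0.10 (95% interval -0.15 to 0.29) and -0.03 ± 0.10 (-0.25 to 0.19) were not called. The second probe, placed on another chromosome, gave 0.09 ± 0.13 and -0.10 ± 0.13, neither of them called.

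JUN, the founding AP-1 subunit that is also induced in injured retinal neurons, was higher in the CNTF eye of every dog. Its level in normal dogs 1 to 5 was 3.65, 3.53, 3.02, 3.37 and 2.88 in PBS eyes and 4.39, 4.39, 4.27, 4.39 and 4.49 in CNTF eyes. In mutants it was 3.62, 4.14, 3.97, 3.71 and 3.83 in PBS eyes and 4.35, 4.75, 4.43, 4.35 and 4.26 in CNTF eyes. The groups were apart in both genotypes. The order was CNTF mutant at 4.43 ± 0.19 (SD, n = 5), CNTF normal at 4.39 ± 0.08, PBS mutant at 3.86 ± 0.21 and PBS normal at 3.29 ± 0.33, where the CNTF groups overlapped each other, as did the PBS groups, and no CNTF eye overlapped a PBS eye. JUN rose 2.14-fold in normal dogs (1.09 ± 0.12, adjusted p = 5.58e-05) and 1.49-fold in mutants (0.57 ± 0.12, adjusted p = 0.00515). Under the slide block JUN still rose in normal dogs, by 1.66 ± 0.34 (adjusted p = 0.0119), and the value in mutants was 0.59 ± 0.34 (adjusted p = 0.538). The value of 1.66 exceeded the largest single-dog rise of 1.61, in dog 5. On slide 2 the only normal PBS array was that of dog 5, the lowest normal PBS eye for JUN. With normexp correction the value in mutants was 0.30 (adjusted p = 0.297).

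JUNB, an AP-1 subunit that can oppose JUN and is a known STAT3 target, was near background, on 15 of 20 arrays above it. In normal dogs 1 to 5 it was -3.40, -3.49, -3.31, -3.41 and -4.21 in PBS eyes, and -3.09, -3.16, -3.26 and -2.26 in the CNTF eyes of dogs 1, 2, 4 and 5, with that of dog 3 lost to an outlier mark. These groups did not overlap, yet the difference of 0.68 ± 0.27 was not called (adjusted p = 0.059). Dog 5 alone differed by 1.94 and the other 3 pairs by 0.15 to 0.34. Leaving out dog 5 gave 0.26 (adjusted p = 0.26), and leaving out dog 4 gave 0.86 (adjusted p = 0.0496). The slide block gave 1.45 ± 0.42 (adjusted p = 0.0736). In mutants the PBS eyes had -3.97 to -3.08, the CNTF eyes -3.49 to -3.0, and the difference was 0.16 ± 0.24 (adjusted p = 0.674).

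JUND, the AP-1 subunit with the steadiest expression in most tissues, was above background on all 20 arrays but kept a value on only 10 after outlier marks. Those values were 2.64, 2.79 and 2.78 in PBS eyes of normal dogs 3, 4 and 5, and 3.71, 3.38, 3.40 and 3.85 in CNTF eyes of dogs 1, 2, 4 and 5. In mutants 3.25 and 4.17 remained for the PBS eyes of dogs 1 and 2, and 3.55 for the CNTF eye of dog 1. With the marked spots kept, a setting chosen after this loss was seen, JUND rose in normal dogs by 0.67 ± 0.14 (adjusted p = 0.00286), and the value in mutants was 0.14 ± 0.14 (adjusted p = 0.474).

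**Figure D2:**
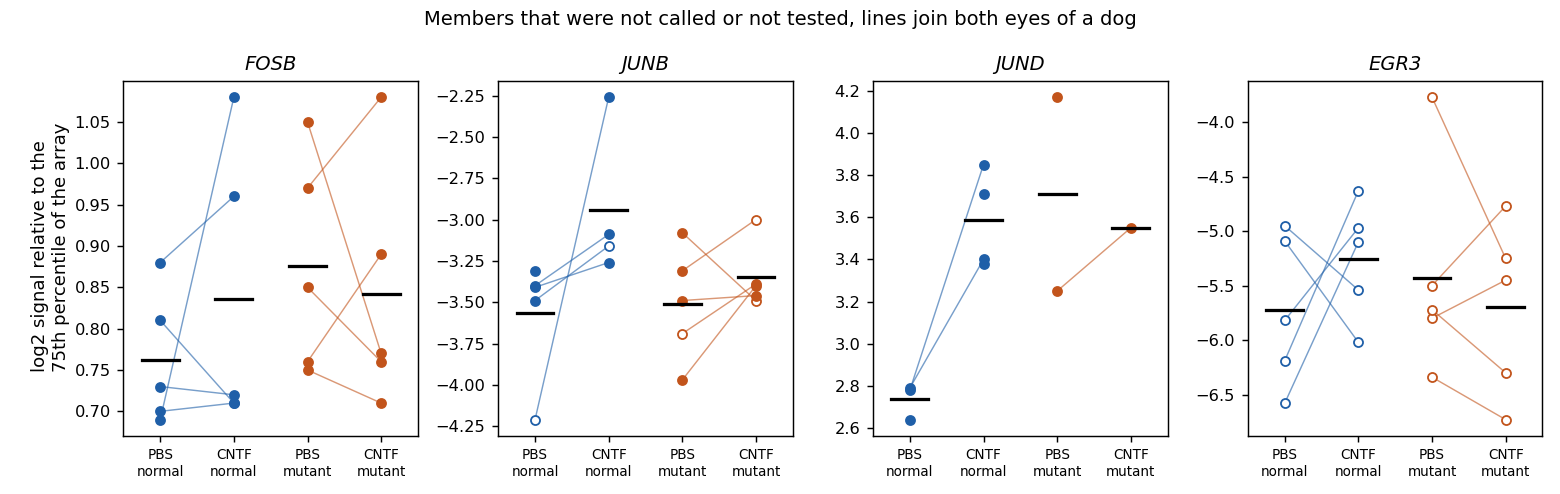
Log2 signal of the main probe, relative to the 75th percentile of the array, of 4 members that were not called or not tested, in the 4 groups; symbols are as in the plot of the called members. FOSB spans 0.69 to 1.08 over all arrays, all EGR3 points are open (not well above background), and JUND keeps 10 arrays.

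MYC, the growth-promoting factor, rose in both genotypes. Normal dogs 1 to 5 had -3.80, -4.43, -4.20, -4.97 and -4.14 in PBS eyes, where dog 4 was not well above background, and -2.0, -2.17, -2.09, -2.31 and -2.15 in CNTF eyes. Mutants 1 to 5 had -3.69, -3.38, -3.80, -3.95 and -3.61 in PBS eyes and -2.45, -2.03, -2.33, -2.21 and -2.36 in CNTF eyes. The groups were far apart in both genotypes, and the CNTF eyes were the tighter, with SDs of 0.112 and 0.164 against 0.433 and 0.215 in PBS eyes. MYC rose 4.48-fold in normal dogs (2.16 ± 0.13, adjusted p = 5.73e-07) and 2.66-fold in mutants (1.41 ± 0.13, adjusted p = 1.28e-05), in 5 of 5 dogs each. The size depended on the background correction. Normexp, with its offset of 50 intensity units, gave 1.22 (adjusted p = 0.0014) in normal dogs and 0.92 (adjusted p = 0.0112) in mutants. MYC levels had the order CNTF normal at -2.14, CNTF mutant at -2.28, PBS mutant at -3.69 and PBS normal at -4.31, again with overlap within a treatment and none between. The single-dog rise was 1.79 to 2.66 in normal dogs and 1.23 to 1.74 in mutants. In the slide-block fit MYC still rose in normal dogs, by 2.21 ± 0.43 (adjusted p = 0.00857), and the value in mutants was 1.42 ± 0.43 (adjusted p = 0.11). Within slide 3 the CNTF arrays of normal dogs were 1.70 above the PBS arrays of mutants.

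**Figure D3:**
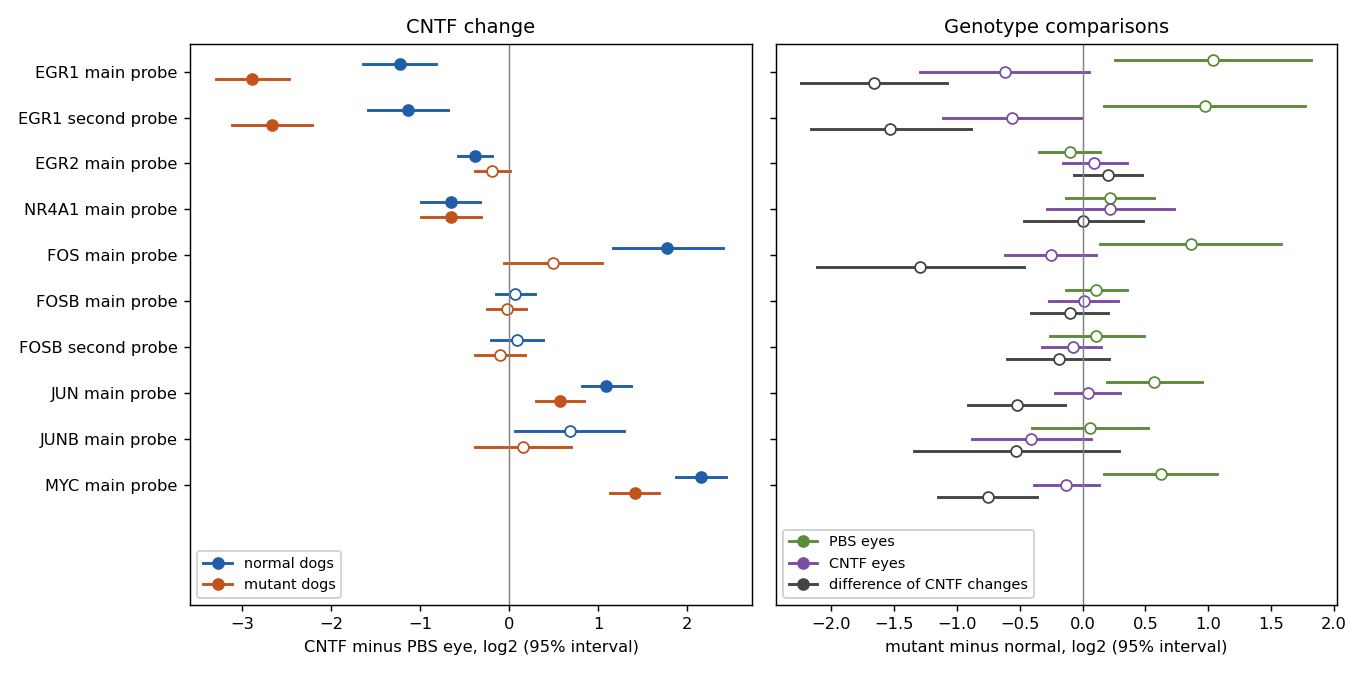
Log2 differences with 95% intervals for the 10 tested probes of 8 genes (vertical axis), left for CNTF against PBS eyes in 5 normal and 5 mutant dogs, right for mutant minus normal in PBS eyes, in CNTF eyes and for the CNTF change. Filled points are called at an adjusted p under 0.05; both EGR1 probes lie left of 0 in both genotypes and no genotype comparison is called.

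The next question was whether the CNTF change depended on genotype. The difference of the changes, mutant minus normal, was -1.66 ± 0.26 for EGR1, -1.29 ± 0.37 for FOS, -0.75 ± 0.18 for MYC and -0.52 ± 0.17 for JUN, each with an adjusted p of 0.103. So the fall of EGR1 was larger in mutants and the increases of FOS, MYC and JUN smaller by these estimates, but none was called. All of these 4 had an unadjusted p under 0.05, from 5.90e-05 for EGR1 to 0.0119 for JUN, as did 10163 of all 29336 probes, of which 0.0% were called. For the second EGR1 probe the difference was -1.53 ± 0.29 with the same adjusted p. NR4A1 fell by nearly equal amounts, with a difference of 0.00 ± 0.21 and a 95% interval from -0.47 to 0.48. EGR2 (0.20 ± 0.12), FOSB (-0.10 ± 0.14) and JUNB (-0.53 ± 0.37) had adjusted p of 0.257 or more. With both slide and dog in the model the EGR1 difference was -2.50 ± 0.25 and was called (adjusted p = 0.0275). That fit holds terms for 10 dogs and 5 slides on 20 arrays, with treatment close to slide. Its EGR1 changes in both genotypes lay beyond every single-dog difference, so this call carries little weight. With the slide in place of the dog it was -1.86 ± 0.94 and was not called (adjusted p = 0.531).

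In PBS eyes the same 4 genes were higher in the mutants by estimates that were not called. The mutants exceeded the normal dogs by 1.04 ± 0.35 for EGR1 (adjusted p = 0.0968), 0.86 ± 0.33 for FOS (adjusted p = 0.111), 0.62 ± 0.20 for MYC (adjusted p = 0.0957) and 0.57 ± 0.17 for JUN (adjusted p = 0.0953), with overlapping groups throughout. Of all probes 0.0272% were called in this comparison, 0.0102% as higher and 0.017% as lower in mutants, and 5.41% had groups that did not overlap. Without normal dog 1, JUN (0.66) and MYC (0.75) were called at adjusted p of 0.0364 and 0.0362, but so were 6296 probes in all. On slide 2, which set 3 mutant PBS arrays beside that of normal dog 5 alone, the mutants were higher by 1.72 for EGR1, 1.52 for FOS, 1.04 for JUN and 0.51 for MYC, and also by 0.85 for JUNB and 0.93 for JUND. Over all PBS arrays the other 4 members tested differed by -0.10 to 0.22. All normal dogs were male, so the PBS comparison was also run without the 3 female mutants. In male dogs only it gave 1.1 for EGR1 (adjusted p = 0.282) and 0.95 for FOS (adjusted p = 0.291). MYC gave 0.49 (adjusted p = 0.341) and JUN 0.38 (adjusted p = 0.356).

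In CNTF eyes the mutants differed from the normal dogs by -0.62 ± 0.30 for EGR1, -0.25 ± 0.16 for FOS, -0.13 ± 0.12 for MYC and 0.04 ± 0.12 for JUN, and none of the 8 main probes tested was called or had an unadjusted p under 0.05, against 0.00681% of all probes called and 1645 of 29360 with such an unadjusted p. The second EGR1 probe gave -0.56 with a 95% interval of -1.11 to -0.01 (adjusted p = 0.879). JUNB differed by -0.41 ± 0.21, beside 0.06 ± 0.21 in PBS eyes. Over all probes the median absolute difference was 0.12 in CNTF eyes and 0.32 in PBS eyes. The 95% interval for JUN was -0.22 to 0.30 and that for MYC -0.39 to 0.13. The PBS eyes enter both the CNTF change and the PBS comparison, so these values are not separate evidence.

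The genes around the members were read from 5 lists. Their counts stand beside all probes, of which 51.2% were called in normal dogs, 23.6% as higher and 27.6% as lower. In mutants 28.9% of all probes were called, 11.6% as higher and 17.3% as lower. Of 17 other immediate early transcription factors 10 were tested. In normal dogs 4 rose and 2 fell, and in mutants 3 rose and 1 fell, with medians of 0.13 and 0.18. KLF6, a zinc finger factor induced by injury, rose by 0.67 ± 0.10 in normal dogs and 0.71 ± 0.10 in mutants (adjusted p = 0.000466 and 0.000392). ATF3, the stress factor that pairs with JUN, rose by 0.66 ± 0.11 and 0.73 ± 0.11 (adjusted p = 0.00095 and 0.000706). MYCN, the relative of MYC in the developing retina, rose by 1.05 ± 0.18 and 0.65 ± 0.18 (adjusted p = 0.00101 and 0.021). NR4A2, the receptor closest to NR4A1, fell by 0.81 and 0.59 (adjusted p = 0.00423 and 0.0295), although only 1 of 5 CNTF arrays of normal dogs, and 2 of 5 arrays in each mutant group, were above background, so both its size and its call are uncertain. None of this list was called with the slide as a block.

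Among 18 immediate early genes whose products are not transcription factors, 12 were tested, and 9 rose and 2 fell in normal dogs (median 0.86), and 6 rose and 1 fell in mutants (median 0.34). RGS2, a brake on G protein signalling, rose 2.84-fold in normal dogs and 2.49-fold in mutants, and GADD45B, a growth arrest and DNA damage gene, 3.99-fold and 3.15-fold. The antiproliferative gene BTG2 rose 4.16-fold and 2.78-fold, and CCN2, the connective tissue growth factor, 4.88-fold and 4.03-fold. Adjusted p lay at or below 3.80e-05 for these 4 genes in both genotypes. Under the slide block RGS2 gave 2.02 and 1.53 (adjusted p = 0.000414 and 0.0037) and GADD45B 2.53 and 1.79 (adjusted p = 0.000654 and 0.00909), so both were still called. BTG2 kept its call in normal dogs only (adjusted p = 0.00796 and 0.139), and CCN2 in neither genotype (adjusted p = 0.109 and 0.441).

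Among 13 feedback inhibitors of the MAP kinase cascade and of EGR proteins, 10 were tested. Of these, 4 rose and 2 fell in normal dogs (median 0.42), and 1 rose and 1 fell in mutants (median 0.02), and no difference between the genotypes was called. DUSP1, the phosphatase of MAP kinases, rose by 1.09 ± 0.18 in normal dogs and 0.61 ± 0.18 in mutants (adjusted p = 0.000641 and 0.024). NAB2, the corepressor that binds EGR1 and is among its targets, rose by 0.83 ± 0.14 in normal dogs (adjusted p = 0.00106) with 0.07 ± 0.14 in mutants (adjusted p = 0.753). The receptor kinase inhibitor SPRY2 rose by 1.35 ± 0.28 (adjusted p = 0.00256) with 0.26 ± 0.28 in mutants, and the nuclear phosphatase DUSP5 by 0.67 ± 0.15 (adjusted p = 0.00402) with -0.03 ± 0.15 in mutants. The genotype difference of these last 3 genes had an adjusted p of 0.103 to 0.105. None of the list was called with the slide as a block.

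Among 18 kinases and factors upstream of immediate early genes, 14 were tested; 5 rose and 3 fell in normal dogs, and 3 rose and 2 fell in mutants, with medians of 0.04 and 0.06. STAT3, the factor that CNTF activates, rose 4.54-fold and 3.02-fold (adjusted p = 4.89e-07 in normal dogs). ELK3, a partner of the serum response factor, rose 2.05-fold and 1.73-fold, and the kinase MAP2K1 1.85-fold and 1.8-fold. Of 12 partners of MYC and AP-1, 10 were tested; 4 rose and 1 fell in normal dogs, and 2 rose and 1 fell in mutants, with medians of 0.26 and -0.04. BATF2, an AP-1 factor of immune cells, rose by 2.03 ± 0.16 and 1.49 ± 0.16. BATF3, which dendritic cells need, rose by 3.1 ± 0.37 and 2.44 ± 0.37, with only 1 of 5 PBS arrays above background in each genotype, so the size is uncertain. MAX, the partner of MYC, rose by 0.49 ± 0.10 in normal dogs (adjusted p = 0.00338) with 0.10 ± 0.11 in mutants. MLX, a relative of MAX, rose by 0.55 ± 0.13 in normal dogs (adjusted p = 0.00557) with -0.03 ± 0.13 in mutants. Under the slide block the named genes of these last 2 lists that kept a call were STAT3, ELK3, BATF2 and BATF3 in normal dogs (adjusted p = 0.00241, 0.00886, 0.0224 and 0.0473) and STAT3 in mutants (adjusted p = 0.0382), while MAP2K1, MAX and MLX kept none.

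**Figure D4:**
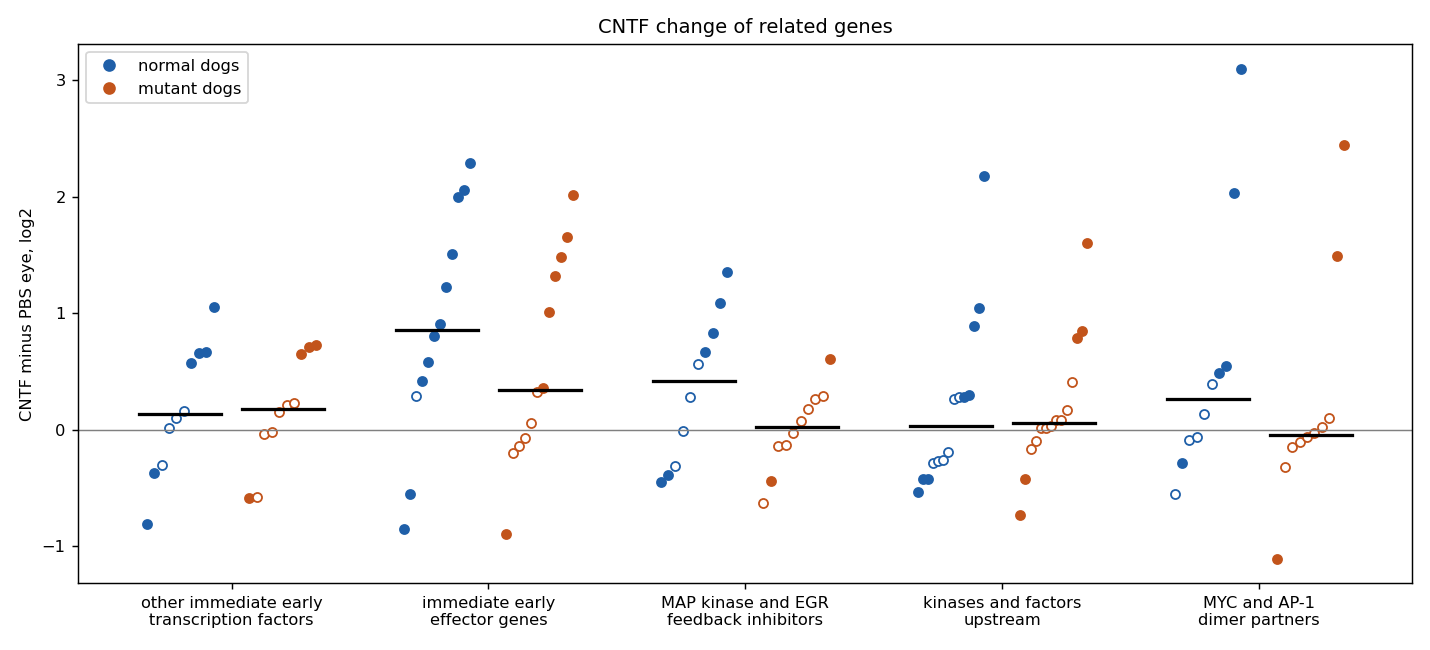
Log2 difference of CNTF against PBS eyes (vertical axis) for the tested genes of 5 lists around the members, in normal and mutant dogs (n = 5 each). Each point is a gene, filled where called, and bars are list medians; the medians of the effector genes are 0.86 and 0.34, against -0.09 over all probes in each genotype.

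The genes whose levels ran most like those of a member were read over the 20 arrays among 7821 genes above background on all of them. These correlations run over 4 groups and share the CNTF change, so they are a description. EGR1 was most like PLA2G5 (0.90), ORAI1 (0.882) and NXNL1 (0.879), the last of which encodes a cone survival factor made by rods. EGR2 was most like NEURL (0.923), TLCD3A (0.909) and SSTR2 (0.896), a somatostatin receptor. JUN was most like STOM (0.968), the MHC class I gene dla88 (0.965) and ECRG4 (0.964). For FOSB the highest were LGALS2 (0.759), PCGF1 (0.75) and UNC5A (0.733).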

How the data were processed

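Total RNA of 20 dog retinas was labelled with Cy3 from 100 ng and hybridised to single-colour Agilent arrays, per the labels' protocols. The deposited array files hold signal intensity per spot from Agilent Feature Extraction 9.5.3.1, background-subtracted and not scaled between arrays, per the file headers. The deposited matrix of the authors holds log2 values with the same median of 6.18 in every column (the submitters' processing notes list Partek 6.4) and was used only as an alternative.

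Each array's 1417 control spots and any outlier-marked spot were dropped, and repeated spots of a probe were averaged. Log2 of the processed signal was taken minus the array's 75th percentile. A probe was kept (29545 were) if at least 4 of the 5 arrays in some group had it well above background, and tested with at least 3 arrays per group. The number of arrays limits the precision. limma 3.58.1 in R 4.3.3 was fitted to all 20 arrays with dogs as blocks and separate CNTF terms by genotype. Genotypes were compared on 10 arrays per treatment. Tests were two-sided, with Benjamini-Hochberg adjustment over all probes. The script was tested on simulated data.

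Both eyes of a dog share its number in the labels. Deviations of both eyes from their group means correlated at -0.151 to 0.689, and 5 of 10 dogs matched best with themselves. In normal dogs the correlations were -0.151 to 0.29 and only dog 4 matched best with itself. In mutants they were 0.192 to 0.689 and only dog 1 did not. The pairing thus had little backing from the values in normal dogs. List genes are the first 4 of each list by the smaller adjusted p among those called (1 of these is not reported here), and like genes the 3 highest Pearson correlations for each member above background on all arrays. Gene names came from the array files and a RefSeq gene table, and slides from array barcodes, which scan times parted alike. The members and the lists were chosen with earlier results of these data known. Alternatives were the background correction, normalization, dim-probe filter, block, male dogs only, the mean of a gene's probes, each dog left out and, added later, outlier spots kept. The normexp correction added an offset of 50 intensity units. Such an offset shrinks log2 differences of dim probes, and its part in the normexp values was not tested. Promoter motifs were not analysed here.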

Additional observations from a re-analysis of the deposited data

Results flagged for a closer look

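In 6 of 37 groups of a member's main probe a single array stood apart from the other values of its group by Dixon's criterion at the 95% level, which chance alone meets in about 1 in 20 groups. EGR1 was high in the PBS eye of normal dog 2, at 2.30, and low in the CNTF eye of mutant dog 4, at -1.65. EGR2 was high in the PBS eye of mutant dog 3, at 1.02. FOS was low in the CNTF eye of mutant dog 5, at 1.89. JUNB was low in the PBS eye of normal dog 5, at -4.21, and high in the CNTF eye of mutant dog 1, at -3.0, neither of them well above background. No cause was tested.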

How the results depend on the processing

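Of 8 members tested, 6 were called for CNTF in normal dogs, 4 in mutants and 0 in the other comparisons. With the slide as a block the counts were 2 in normal dogs and 0 in mutants, beside 1148 and 796 of 29336 probes. With slide and dog blocks, which leave few arrays beyond the terms fitted, they were 0 and 1, beside 0 and 47 probes. For the genotype difference of the change that fit called 1 (EGR1), beside 45 probes. Normexp background correction gave 4 in normal dogs, where EGR2 and NR4A1 lost their calls, and 2 in mutants, and only probes above background on all 20 arrays also 2 in mutants, since fewer members were then tested. Leaving out each dog gave 6 to 7 calls in normal dogs, 4 in mutants, and 0 to 2 for genotype in PBS eyes, where JUN and MYC were called only without normal dog 1, which also took the calls over all probes from 8 to 6296. NR4A1 in mutants turned from -0.66 to 0.10 under normexp (adjusted p = 0.743), and the cause was not tested. Without the replicate block JUNB was also called in normal dogs (0.62, adjusted p = 0.0364), giving 7 members there and 4 in mutants, and pairing by number changed no call between genotypes. The deposited values hold all 43603 probes on every array, outlier-marked spots included, so JUND was tested there as well. They called 8 members in normal dogs, JUNB (2.0 ± 0.75, adjusted p = 0.0483) and JUND (0.45) among them, but not FOSB (adjusted p = 0.881). With marked spots kept in the main processing JUNB gave 1.88 ± 0.76 and was not called (adjusted p = 0.0604), beside 0.68 ± 0.27 without them. The marked JUNB spot of normal dog 3 enters both larger values, and its part was not tested. Normexp moved the share of higher calls over all probes from 46.0 to 61.1% in normal dogs and from 40.2 to 56.0% in mutants. Of the single-gene values, 695 kept their side of the threshold (36 of them, uncalled in both settings, with the other sign), 20 lost a call, 7 gained one, 14 moved within a slide and 1 called value turned. Probes near background, such as JUNB and EGR3, limit what can be read.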
